A study of Mus musculus with 8 samples.

Results

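The mevalonate and sterol pathway turns acetyl-CoA into cholesterol, and 26 of its genes were followed here in mouse liver: 22 that encode enzymes of the pathway or a carrier of newly made cholesterol, and 4 that encode SREBP2, the transcription factor that switches the pathway on, and the proteins that control it. The genes were taken as a list of symbols, and all 26 were found among the 48432 genes of the table, each with an estimate in all 8 libraries. RNA had been sequenced from livers of wild-type C57BL/6 mice after 30 weeks in 1 of 4 conditions. LD-FA mice lived under a light/dark cycle in filtered air, LD-PM2.5 mice under that cycle in PM2.5 (fine airborne particles), LL-FA mice under constant light in filtered air, and LL-PM2.5 mice under constant light in PM2.5. Each group had 2 libraries, named replicate 1 and replicate 2. The sources used here do not give the sex or age of the mice, their feeding or the time of day of collection. They do not say that replicates were separate animals either, so the p-values measure the spread between libraries, which may be technical.

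In hepatocytes the pathway is governed by sterol feedback. SREBP2 sits in the endoplasmic reticulum bound to its escort SCAP, and when sterols are plentiful the INSIG proteins hold the pair there. When sterols run low, SCAP carries SREBP2 to the Golgi, where it is cut, and the freed fragment enters the nucleus and raises transcription of nearly every enzyme gene of the pathway, of Insig1 and of its own gene. The liver supplies cholesterol to lipoproteins and bile acids, and its cholesterol synthesis varies with feeding and with the time of day.

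SREBP2 binds promoters next to the factors NF-Y and Sp1, and the stretch of 200 bases just before the transcription start that RefSeq lists is shown for 4 of the genes to give the sequence setting of the values below. Hmgcs1 (chr13:119690151-119690350, plus strand) and Mvk (chr5:114444069-114444268, plus strand) were among the genes that differed most between the 2 libraries of LD-PM2.5, while Ebp (chrX:8193513-8193712, minus strand) and Ggps1 (chr13:14063489-14063688, minus strand) were among those that differed least. Sequences are from RefSeq on GRCm38.p6, 5′ to 3′ on the strand of the gene, and capitals mark the NF-Y box (ATTGG, or CCAAT on the other strand) and, in Hmgcs1, the core of the sterol regulatory element (TCACNCCAC).
Hmgcs1: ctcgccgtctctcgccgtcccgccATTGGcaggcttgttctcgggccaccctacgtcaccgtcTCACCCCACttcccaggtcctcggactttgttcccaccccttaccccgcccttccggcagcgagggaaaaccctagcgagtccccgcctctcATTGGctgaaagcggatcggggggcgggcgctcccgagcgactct
Mvk: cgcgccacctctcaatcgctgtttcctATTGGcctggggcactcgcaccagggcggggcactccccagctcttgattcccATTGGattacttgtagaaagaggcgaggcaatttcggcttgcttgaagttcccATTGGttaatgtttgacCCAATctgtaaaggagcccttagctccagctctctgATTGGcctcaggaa
Ebp: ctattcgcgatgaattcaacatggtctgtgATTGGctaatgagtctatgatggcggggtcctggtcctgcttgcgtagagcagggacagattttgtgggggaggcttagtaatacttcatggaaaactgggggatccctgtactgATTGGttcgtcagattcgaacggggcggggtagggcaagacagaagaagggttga
Ggps1: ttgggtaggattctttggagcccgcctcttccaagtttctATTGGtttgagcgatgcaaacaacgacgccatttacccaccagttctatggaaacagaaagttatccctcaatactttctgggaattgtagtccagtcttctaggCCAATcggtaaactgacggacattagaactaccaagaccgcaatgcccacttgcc

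Each of the 4 windows held at least 2 NF-Y boxes, and that of Mvk held 5. Whether the boxes bear on the difference between the 2 LD-PM2.5 libraries was not tested. Promoters, here 250 bases before to 50 after a start, were found for 22 of the 26 genes. Fdps, Fdft1, Sqle and Stard4 had none in the table. An NF-Y box on either strand stood in 20 of the 22, against 41.1% of all 27025 genes with a promoter in the table. Mvk held the most, 5. Of the genes that differed more than Mvk between the LD-PM2.5 libraries, Hmgcs1 and Nsdhl held 4, Msmo1 3, Idi1 and Mvd 2, and Cyp51 1. A GGGCGG box, bound by Sp1, also stood in 20 of the 22, against 38.2% of all genes. The shares for all motifs count every gene with a promoter in the table, whether or not it was expressed in these livers. The E-box CACGTG, the kind of site that CLOCK and BMAL1 bind, was present in 6 of the 22 (Insig1, Scap, Sc5d, Dhcr7, Hsd17b7 and Dhdds), against 8.09%. The exact core TCACNCCAC was found in 1 of the 22, Hmgcs1, against 1.44%. Both strands were searched for each motif, a gene with several starts was counted once if any of them held it, and whether matches of different motifs share bases was not examined. A match describes letters, not binding.

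The libraries held 22214720 to 31819109 fragments. The hepatocyte markers Cps1, Ttr, Cyp2e1, Cyp3a11, Tat, Pck1 and Asgr1 together summed to between 12832.9 and 16080.5 FPKM (fragments scaled for transcript length and library size) per library. Markers of other tissues were also present in some libraries. For 7 pancreatic acinar markers the sum was 3289.5 FPKM in LD-FA replicate 1, 334.0 in LL-PM2.5 replicate 2, 115.0 in LD-PM2.5 replicate 1 and 18.0 to 34.8 in the other 5. For 6 skeletal muscle markers it was 510.0 FPKM in LL-FA replicate 1, 269.0 and 30.8 in the first and second LD-FA libraries, and at most 1.3 in the other 5. LD-PM2.5 replicate 2, the library that the results below turn on, had 26.8 FPKM of the pancreatic and 0.87 of the muscle markers. In bulk tissue, fewer cells of a type and less RNA per cell cannot be told apart.

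Measured per length of transcript, the genes covered a wide range of levels. Sc5d, the lathosterol desaturase near the end of the pathway, had the highest median over libraries at 310 FPKM, followed by Fdps (farnesyl diphosphate synthase) at 207, Insig1 at 179, Msmo1 (the sterol C4 methyl oxidase) at 173 and Hmgcs1 (cytosolic HMG-CoA synthase) at 170. The medians of Msmo1 and Hmgcs1 were closer than their spread over libraries, so their order is not resolved, and the same held for Fdps against Insig1 and Insig1 against Msmo1. The lowest was Ggps1, which makes geranylgeranyl diphosphate for protein prenylation, with 1.41 to 2.36 FPKM. Dhdds and Nus1, the 2 subunits of the enzyme that starts dolichol synthesis, had medians of 10.6 and 15.0 FPKM. All 26 genes passed the filter of at least 1 FPKM in at least 2 libraries, as did 11315 genes in all.

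A single library, LD-PM2.5 replicate 2, stood far below the other 7 for most of the pathway. Scaled to library size, 20 of the 26 genes had their lowest value there, against 19.4% of all tested genes, and by FPKM it was 19 of the 26, against 18.1%. In that library the median gene of the 26 lay 0.86 below its own mean over the 8 libraries on the log2 CPM scale (CPM, fragments scaled to library size). The medians of the other libraries ran from -0.22 in LL-PM2.5 replicate 1 to 0.48 in LD-FA replicate 2, and for all tested genes the medians ran from 0.0 to 0.01. At the other end, 18 of the 26 had their highest scaled value in LD-FA replicate 2, against 6.12% of all genes, and by FPKM 13 of the 26, against 4.9%. Depth moved with these extremes, since LD-PM2.5 replicate 2 had the fewest fragments (22214720) and LD-FA replicate 2 the most (31819109). LL-FA replicate 2, nearly as shallow with 22719024 fragments, had a median deviation of -0.01 and the lowest scaled value of 0 of the 26 genes. The part of depth in the result was not tested.

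**Figure D1:**
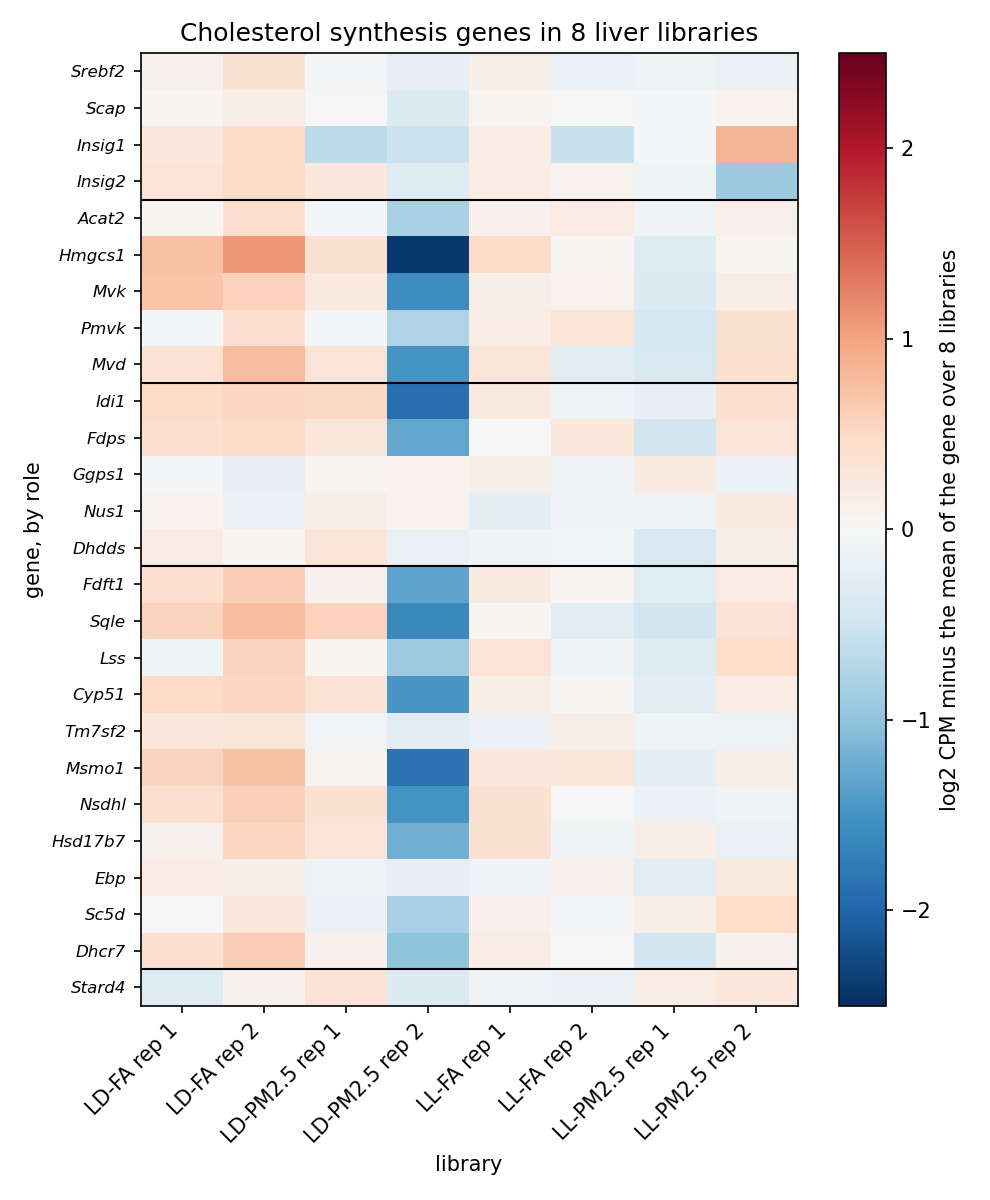
Each cell is the log2 CPM of 1 gene (rows, grouped by role from the SREBP2 regulators at the top to the carrier Stard4 at the bottom) in 1 library (columns) minus the gene's mean over the 8 libraries, blue for lower and red for higher. LD-PM2.5 replicate 2 holds the lowest value of 20 of the 26 genes and the highest of none.

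Among the early steps, Hmgcs1 had the widest range of all 26 genes. Hmgcs1, which condenses acetoacetyl-CoA with acetyl-CoA, was at 250 and 280 FPKM under light/dark with filtered air and 206 and 26.2 with PM2.5, and 227 and 134 under constant light with filtered air and 128 and 133 with PM2.5. The highest library was 10.7 times the lowest, and 2.2 times the lowest of the other 7 when LD-PM2.5 replicate 2 was left out. Mevalonate kinase, Mvk, read 27.7 and 28.4 FPKM under light/dark with filtered air and 20.2 and 6.29 with PM2.5, and 17.7 and 20.3 under constant light with filtered air and 13.4 and 20.3 with PM2.5, so both LD-FA libraries lay above the other 6. Mvd, which makes isopentenyl diphosphate, ranged from 6.41 FPKM in LD-PM2.5 replicate 2 to 31.9 in LD-FA replicate 2. Phosphomevalonate kinase, Pmvk, varied less, from 41.7 to 94.6 FPKM. Acat2, the cytosolic thiolase of the first step, stood at 19.0 FPKM in LD-PM2.5 replicate 2 and at 32.4 to 43.2 elsewhere. Acat2 has a close neighbouring copy, Acat3, so how fragments were shared between them is uncertain.

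At the branch point, genes that feed sterols and genes of the other branches differed. Idi1, the isomerase that makes dimethylallyl diphosphate, was at 16.0 and 13.9 FPKM under light/dark with filtered air and 17.5 and 2.75 with PM2.5, and 14.8 and 8.76 under constant light with filtered air and 10.6 and 12.5 with PM2.5. Its low value was again LD-PM2.5 replicate 2, while replicate 1 of that group was the highest of all 8. Fdps followed the same order of that pair, with 201 and 69.9 FPKM in LD-PM2.5 and 119 to 239 in the other groups. By contrast Ggps1 read 2.13 and 1.81, Nus1 19.5 and 14.5, and Dhdds 13.9 and 9.45 FPKM in the 2 LD-PM2.5 libraries. Their highest library was 1.67, 1.69 and 1.7 times their lowest.

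Most enzymes committed to sterols shared the low library. Squalene epoxidase, Sqle, a rate-limiting step, was at 58.3 and 60.5 FPKM under light/dark with filtered air and 59.7 and 11.5 with PM2.5, and 40.8 and 29.7 under constant light with filtered air and 29.5 and 43.3 with PM2.5. LD-PM2.5 replicate 1 thus sat with the LD-FA libraries, and the 4 constant light libraries sat between. Msmo1 read 242 and 225 FPKM under light/dark with filtered air and 182 and 38.9 with PM2.5, and 212 and 164 under constant light with filtered air and 148 and 143 with PM2.5. In each light regime both PM2.5 libraries lay below both filtered air libraries, and LD-PM2.5 replicate 2 was again the lowest.

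The remaining sterol genes split by how far they followed. Lanosterol demethylase, Cyp51, was at 22.8 FPKM in LD-PM2.5 replicate 2 and at 61.0 to 99.9 in the other 7 libraries. Nsdhl, which works with Msmo1 to remove the C4 methyl groups, was at 16.3 against 40.0 to 69.9 FPKM, and Hsd17b7, of the same demethylation, at 8.35 against 15.6 to 29.8. Fdft1 (squalene synthase) was at 22.3 against 45.7 to 82.9 FPKM, and Dhcr7, the last reductase on the way to cholesterol, at 28.6 against 43.5 to 89.2. Lss, which closes the sterol ring, ranged from 8.93 to 23.8 FPKM, and Sc5d was at 160 against 252 to 361. The sterol isomerase Ebp hardly varied, from 140 to 192 FPKM in the other libraries and 141 in LD-PM2.5 replicate 2. The sterol reductase Tm7sf2 read 140 and 146 FPKM under light/dark with filtered air and 114 and 98.4 with PM2.5, and 103 and 127 under constant light with filtered air and 109 and 105 with PM2.5, with both LD-FA libraries above the rest.

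Srebf2 and Scap varied less than most of the enzymes, with a highest library 1.56 and 1.44 times the lowest. Srebf2, the gene of SREBP2, was at 14.5 and 19.0 FPKM under light/dark with filtered air and 13.0 and 12.6 with PM2.5, and 13.7 and 13.1 under constant light with filtered air and 12.1 and 12.5 with PM2.5. The library with the lowest enzyme levels was not set apart by its Srebf2, and LD-FA replicate 2 was the only one above 14.5. Scap ranged from 24.4 FPKM in LD-PM2.5 replicate 2 to 35.0 in LD-FA replicate 2. Stard4, which carries cholesterol between membranes, ranged from 21.7 to 39.2 FPKM, its extremes being the 2 libraries of LD-PM2.5.

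The 2 INSIG genes departed from the enzymes and from each other. Insig1, itself an SREBP2 target, was at 201 and 203 FPKM under light/dark with filtered air and 110 and 103 with PM2.5, and 193 and 96.8 under constant light with filtered air and 166 and 255 with PM2.5. Both LD-PM2.5 libraries were low, including replicate 1, and LL-FA replicate 2 was the lowest of all. Enzyme levels in LD-PM2.5 replicate 1 were mixed. Sqle (59.7 FPKM) and Cyp51 (96.7) lay within the LD-FA range, while Hmgcs1 (206), Mvk (20.2) and Msmo1 (182) lay below it. Insig2 read 145 and 147 FPKM under light/dark with filtered air and 153 and 95.4 with PM2.5, and 138 and 108 under constant light with filtered air and 112 and 54.5 with PM2.5. The highest Insig1 and the lowest Insig2 were in the same library, LL-PM2.5 replicate 2. The ratio of Insig1 to Insig2 FPKM was 4.68 there, 0.72 in LD-PM2.5 replicate 1 and 0.896 to 1.49 in the other 6.

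**Figure D2:**
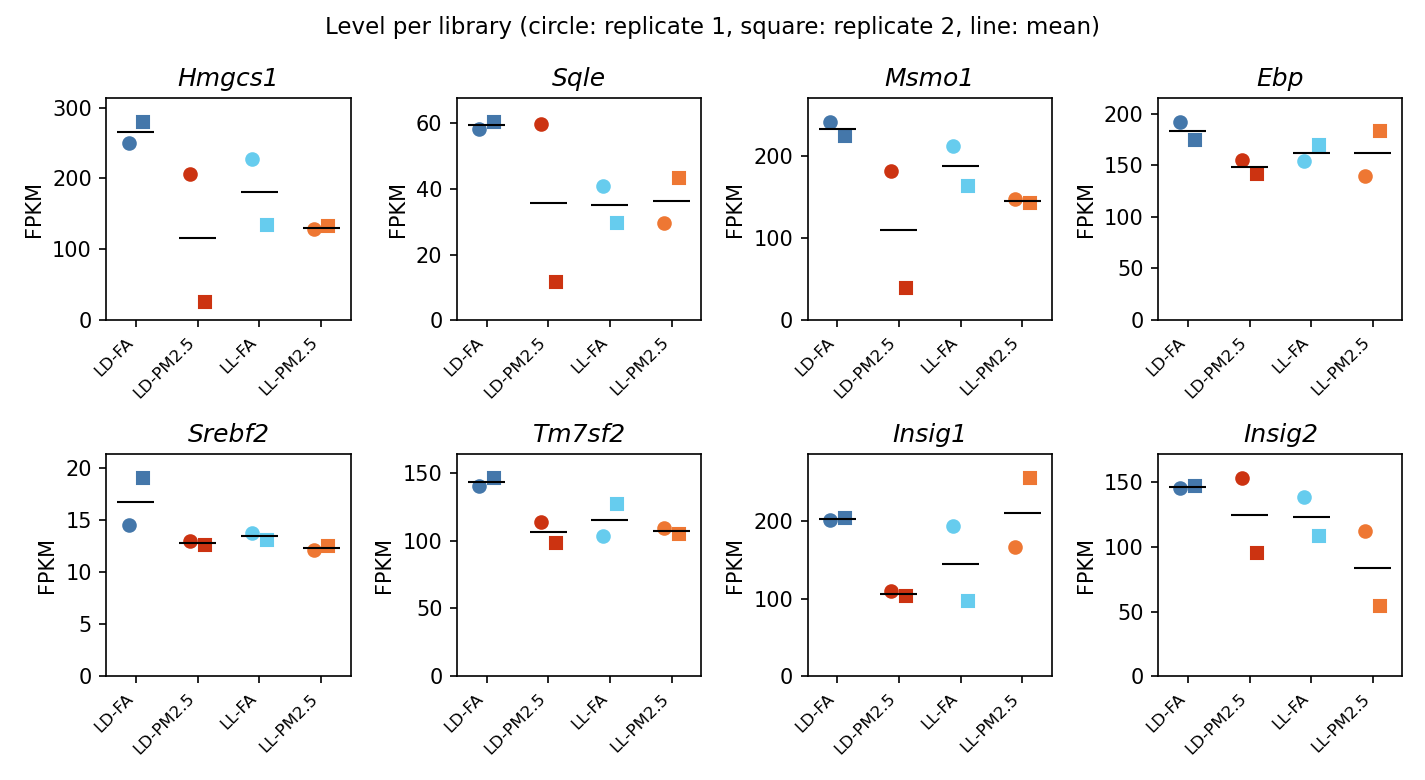
FPKM of 8 genes (1 panel each, axes from 0) in the 4 groups, with a circle for replicate 1, a square for replicate 2 and a line for the group mean. Hmgcs1, Sqle and Msmo1 have their lowest point in LD-PM2.5 replicate 2 (26.2, 11.5 and 38.9 FPKM), while Ebp and Srebf2 have no such low point. For Insig1 both LD-PM2.5 points and that of LL-FA replicate 2 are low.

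Within LD-PM2.5, the gap between the 2 libraries was measured for each gene as log2 CPM of replicate 2 minus replicate 1. The median of the 26 genes was -0.87 and that of all tested genes -0.01. In 12 of the 26 genes the difference was below -1, which held for 1.83% of all tested genes. Hmgcs1 differed by -2.78, Idi1 by -2.40, Sqle by -2.17 and Msmo1 by -1.91, and 30, 38, 45 and 56 of the 11315 tested genes had a lower value. At the upper end were Insig1 at 0.11, Ggps1 at 0.02, Ebp at -0.08 and Nus1 at -0.09. By role, the median was -1.8 in the 5 mevalonate genes, -1.43 in the 11 sterol genes, -0.27 in the 4 regulators and -0.52 in the 5 isoprenoid genes, where Idi1 (-2.40) and Fdps (-1.59) lay below Dhdds (-0.52), Nus1 and Ggps1. The same difference between replicates had a median over the 26 genes of 0.42 in LL-PM2.5, 0.19 in LD-FA and -0.13 in LL-FA. In each, 0 of the 26 were below -1, against 1.72%, 1.74% and 2.17% of all tested genes in that order.

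**Figure D3:**
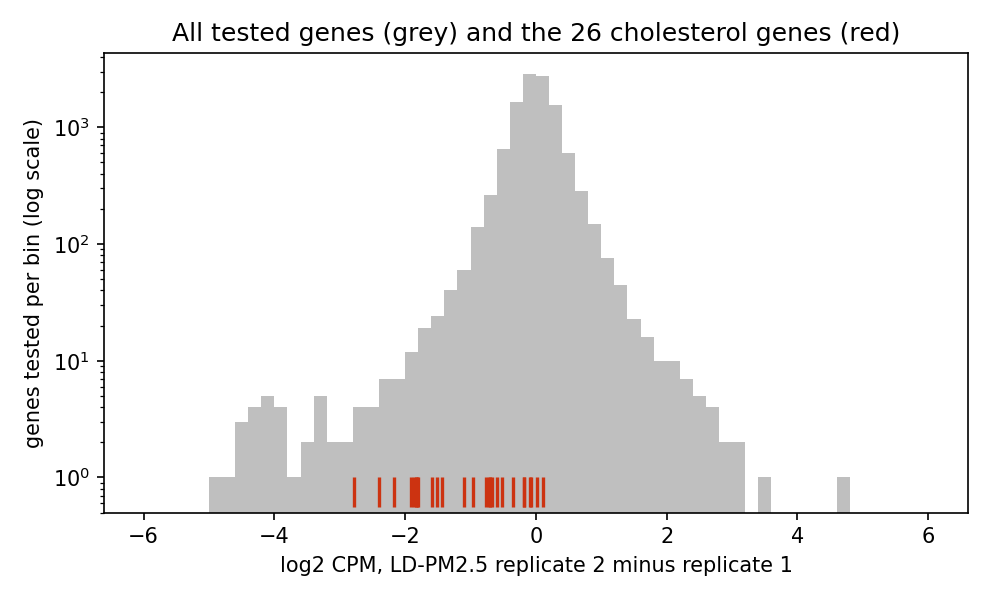
Grey bars count all 11315 tested genes by their log2 CPM in LD-PM2.5 replicate 2 minus replicate 1 (horizontal axis; the vertical axis is a log scale), and red ticks mark the 26 cholesterol genes. The ticks reach from 0.11 for Insig1 down to -2.78 for Hmgcs1, and 12 lie below -1.

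Other transcripts differed between the same 2 libraries. The clock repressor Nr1d1 was at 52.5 and 5.55 FPKM in LD-PM2.5 replicates 1 and 2, Per2 at 1.85 and 9.33, and Cry1 at 2.85 and 15.1. In the other 6 libraries Nr1d1 ranged from 12.2 to 39.8, Per2 from 0.699 to 2.23 and Cry1 from 2.71 to 5.36 FPKM. Replicate 2 thus lay outside the range of all others for these 3 of the 5 clock genes listed. For Nr1d1, replicate 1 (52.5) also lay outside the range of the other 6, at the upper end. Dbp (9.12 and 13.0) and Arntl (4.4 and 4.0) were closer in the 2 libraries, and both differed from LD-FA, where Dbp was at 2.77 and 2.05 and Arntl at 6.75 and 6.35 FPKM. For LD-PM2.5 against LD-FA, Dbp stood at 2.21 ± 0.39 (edgeR adjusted p = 0.382) and Arntl at -0.65 ± 0.14 (edgeR adjusted p = 0.416), and for LL-PM2.5 against LL-FA at 2.82 ± 0.38 and -1.37 ± 0.15 (0.322 and 0.126). Por, the reductase that passes electrons to Sqle and Cyp51 as well as to drug-metabolising P450 enzymes, was highest in that library, at 189 against 43.6 to 110 FPKM. Thrsp, a lipogenic gene, was also highest there, at 991 against 163 to 420 FPKM. Their part in the low cholesterol gene levels was not tested.

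The first contrast, LD-PM2.5 against LD-FA, addressed PM2.5 exposure of mice kept in light and dark. Of the 26 genes 23 had a negative log2 fold change, against 51.6% of all tested genes, and the median was -0.61 against -0.01 for all. None passed the test (edgeR quasi-likelihood, smallest adjusted p = 0.427), nor did any of the 11315 genes (0.0%). DESeq2, which called 1.33% of all genes, called 0 of the 26. So did limma on log2(FPKM + 1), which called 0.0% of all genes here and at most 0.0177% in any contrast. At an unadjusted p under 0.05 the count was 7 lower and 0 higher, against 4.18% and 6.78% of all genes. With only the LD-PM2.5 and LD-FA libraries in the fit 3 were lower, against 4.45% of all genes. Without a filter on low values 20 were lower, against 4.98%. In 18 of the 26 both scaled LD-PM2.5 values lay below both LD-FA values, against 24.8% of all genes, and in 1, Ggps1, they lay above, against 24.6%. By FPKM they lay below in 15 of the 26, against 18.7%, and above in 0, against 24.6%.

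Tm7sf2, the gene of smallest p in that contrast, was not the one of largest fold change. Tm7sf2 stood at -0.44 ± 0.14 (log2 fold change ± SE; edgeR adjusted p = 0.427) with a mean of 143 ± 4.32 FPKM (SD, n = 2) for filtered air against 106 ± 10.8 for PM2.5. Insig1 stood at -0.98 ± 0.33 (edgeR adjusted p = 0.438), with means of 202 ± 1.35 and 107 ± 4.95 FPKM. For both, the gap between group means was larger than the spread within either group. Hmgcs1 had the lowest fold change, -1.35 ± 0.72 (edgeR adjusted p = 0.510), with means of 265 ± 21.6 and 116 ± 127 FPKM, the second SD exceeding its mean. Msmo1 followed at -1.25 ± 0.51 and Mvk at -1.02 ± 0.49. The 7 genes at an unadjusted edgeR p under 0.05 were Tm7sf2, Insig1, Msmo1, Dhcr7, Sc5d, Acat2 and Srebf2, not Hmgcs1 or Mvk. Dhcr7, Sc5d, Acat2 and Srebf2 stood at -0.87 ± 0.35, -0.60 ± 0.24, -0.62 ± 0.25 and -0.37 ± 0.15. Ggps1 at 0.21 ± 0.21, Nus1 at 0.15 ± 0.16 and Stard4 at 0.14 ± 0.24 were the 3 positive ones.

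The size of this contrast moved most with the 2 LD-PM2.5 libraries, and less with those of LD-FA. The median over the 26 genes was -0.43 without LD-FA replicate 2, where 18 of the 26 had their highest scaled value. It was -0.77 without LD-FA replicate 1. Without LD-PM2.5 replicate 2 the median was -0.21. Hmgcs1 was then -0.53, Msmo1 -0.58, Sqle -0.09, Cyp51 -0.13 and Idi1 0.01. Insig1 kept its size at -1.02, and Tm7sf2 was -0.35. Without LD-PM2.5 replicate 1 the median was -1.12. Hmgcs1 was then -3.34, Msmo1 -2.51, Idi1 -2.42, Sqle -2.29, Mvk -2.20, Mvd -2.09, Nsdhl -2.0 and Cyp51 -1.99. In that fit the 1 remaining LD-PM2.5 library is assumed to vary like the other groups. Without a filter on low values, 8 of the 26 were called, against 2.81% of all genes.

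**Figure D4:**
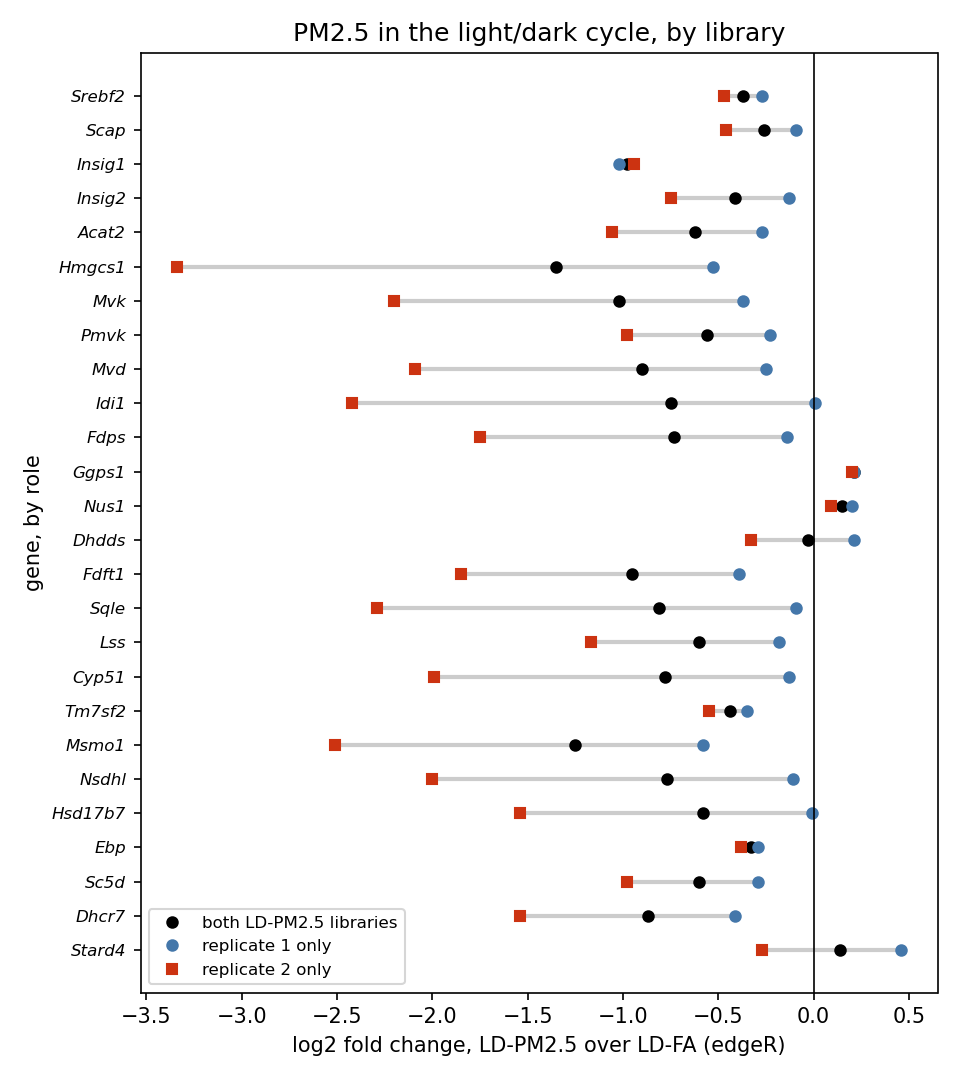
Log2 fold change of LD-PM2.5 over LD-FA (horizontal axis) for the 26 genes (rows, by role), with both LD-PM2.5 libraries (black), replicate 1 only (blue) or replicate 2 only (red square). For Hmgcs1 the 3 values are -1.35, -0.53 and -3.34, while for Insig1 they lie between -1.02 and -0.94.

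The contrast of LL-PM2.5 with LL-FA asked whether the particles had the same effect without a light cycle. The median over the 26 genes was -0.13, with 17 negative against 49.3% of all genes, and it was 0.08 without LL-PM2.5 replicate 1. None was called by edgeR (0.0% of all genes; smallest adjusted p = 0.989), by DESeq2 (0.513% of all genes) or by limma, and 0 of the 26 had an unadjusted p under 0.05 in edgeR, against 2.71% of all genes for lower and 2.12% for higher values. The LL-PM2.5 values of Hmgcs1, Msmo1, Nsdhl and Insig2 lay below those of LL-FA and those of Stard4 and Sc5d above, in scaled fragments. That is 4 lower and 2 higher of 26, against 14.9% and 15.1% of all genes, and by FPKM 4 lower and 1 higher, against 11.6% and 9.65%. Insig2, at -0.60 ± 0.29, with means of 123 ± 20.9 and 83.0 ± 40.4 FPKM, had the smallest p of the 26 (edgeR adjusted p = 0.989).

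Constant light in filtered air, LL-FA against LD-FA, was set against the light/dark controls to ask what loss of the light cycle did by itself. Here 24 of the 26 genes had a negative fold change, against 49.9% of all genes, with a median of -0.27. In 16 of the 26 both scaled LL-FA values lay below both LD-FA values, against 15.9% of all genes, and in 0 they lay above, against 14.3%. By FPKM they lay below in 15 of the 26, against 11.3%. None was called by edgeR (0.0% of all genes; smallest adjusted p = 1.0), DESeq2 (0.38% of all genes) or limma, and 0 had an unadjusted p under 0.05 in edgeR, against 1.55% of all genes for lower and 1.19% for higher values. With only the LL-FA and LD-FA libraries in the fit 8 of the 26 were lower at that p, against 2.15% of all genes, and without a filter on low values 6, against 2.13%. Sqle, with means of 59.4 ± 1.61 FPKM in LD-FA and 35.3 ± 7.82 in LL-FA, stood at -0.77 ± 0.60, and Tm7sf2 at -0.27 ± 0.14. Leaving out LD-FA replicate 1, which held most pancreatic RNA, gave a median of -0.37, and -0.46 when LL-FA replicate 1, with most muscle RNA, was left out too. Without LD-FA replicate 2, where 18 of the 26 genes had their highest scaled value, the median was -0.24 with 19 negative. Without LL-FA replicate 2 the median was -0.22 with 21 negative. This contrast shares the LD-FA libraries with the first one.

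Constant light in PM2.5, LL-PM2.5 against LD-PM2.5, gave the opposite sign, with a median of 0.24 and 5 of 26 negative against 48.8% of all genes. The sign turned with 1 library, since the median was -0.14 without LD-PM2.5 replicate 2. It was 1.03 when replicate 1 of that group was left out and 0.03 without LL-PM2.5 replicate 2. None of the 26 was called by edgeR (0.0% of all genes; smallest adjusted p = 0.486) or limma, and 2 had an unadjusted p under 0.05, both higher, against 3.54% of all genes for higher and 5.68% for lower values. These were Insig1 at 1.07 ± 0.33 and Sc5d at 0.77 ± 0.24, the 2 of 26 genes whose scaled values did not overlap, against 19.1% of all genes for higher and 20.2% for lower values. DESeq2 called 1 of the 26, Insig1, against 1.23% of all genes.

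The interaction, the PM2.5 difference in constant light minus that in the light/dark cycle, had a median of 0.52 over the 26 genes, with 2 negative against 49.6% of all genes. Leaving out LD-PM2.5 replicate 2 gave 0.12, and leaving out replicate 1 gave 1.27. None passed edgeR (0.0% of all genes; smallest adjusted p = 0.843) or limma. At an unadjusted p under 0.05 were 2 higher, against 1.97% of all genes, and 0 lower, against 2.91%. Insig1 stood at 1.59 ± 0.46, its PM2.5 fold change being -0.98 in the light/dark cycle and 0.61 ± 0.33 in constant light, and Sc5d at 0.88 ± 0.33. Insig1 was the 1 of the 26 that DESeq2 called for the interaction, against 0.292% of all genes. Its values overlapped in constant light, with 193 and 96.8 FPKM in filtered air and 166 and 255 in PM2.5.

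Averaged over both light regimes, PM2.5 against filtered air gave a median of -0.36, with 23 of 26 negative against 50.4% of all genes. Without LD-PM2.5 replicate 2 the median was -0.15, with 20 of 26 negative. edgeR called none of the 26, where 0.0177% of all genes were called (smallest adjusted p among the 26 = 0.43), and DESeq2 (1.42% of all genes) and limma called none of them either. At an unadjusted p under 0.05, 3 were lower, against 4.51% of all genes, and 0 higher, against 5.54%. They were Tm7sf2 at -0.29 ± 0.10, Insig2 at -0.51 ± 0.20 and Srebf2 at -0.26 ± 0.11. Msmo1 was the only 1 of the 26 with all 4 scaled PM2.5 values below all 4 filtered air values, against 2.86% of all genes, at -0.78 ± 0.36, and 0 had all 4 above, against 2.82%. By FPKM, 1 PM2.5 library of Msmo1 (182) lay above 1 in filtered air (164). Averaged over both airs, constant light against the light/dark cycle had a median of -0.02, with 14 negative against 48.8% of all genes, 0 called by edgeR (0.0% of all genes), DESeq2 (0.813%) or limma and 0 at an unadjusted p under 0.05, against 3.48% lower and 2.18% higher. In 0 of the 26 did the 4 and 4 values not overlap, against 1.79% of all genes lower and 1.4% higher. Leaving out LD-PM2.5 replicate 1 gave 0.44, and leaving out replicate 2 gave -0.23.

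Genes around the pathway were taken from lists. None of their members was called by edgeR in any of the 7 contrasts. Of all tested genes, 19.4% had their lowest and 19.1% their highest scaled value in LD-PM2.5 replicate 2, and 4.18% were lower and 6.78% higher in LD-PM2.5 than in LD-FA at an unadjusted p under 0.05, which is the background for the counts of each list below. Of 16 other genes reported to respond to SREBP2, 7 had their lowest scaled value in LD-PM2.5 replicate 2 and 2 their highest. Rdh11, a retinal reductase, was at 13.4 FPKM there against 29.0 to 46.7 elsewhere. Acss2, which makes cytosolic acetyl-CoA from acetate, was at 43.4 against 77.6 to 133, and stood at -0.85 ± 0.31 for LD-PM2.5 against LD-FA (edgeR adjusted p = 0.438). The fatty acid desaturase Fads2 and the elongase Elovl6 went the other way in that contrast, at 0.48 ± 0.15 and 0.96 ± 0.27. In this list 1 gene was lower and 2 were higher at an unadjusted p under 0.05, with a median of -0.10.

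Of 7 tested genes that serve sterol steps along with other reactions, 4 were lowest in the same library, against 19.4% of all genes. Erg28, a scaffold of the C4 demethylation complex, was at 48.9 FPKM there against 76.3 to 94.1 elsewhere. Por stood at 1.36 ± 0.40 for LD-PM2.5 against LD-FA (edgeR adjusted p = 0.422). In that contrast 3 were lower and 1 higher at an unadjusted p under 0.05, with a median of -0.26.

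Of 12 genes of sterol sensing, SREBP processing and enzyme degradation, 1 was lowest and 3 were highest in that library, against 19.4% and 19.1% of all genes. Rnf145, a sterol-responsive ubiquitin ligase, was at 4.25 and 4.84 FPKM under light/dark with filtered air and 5.43 and 7.71 with PM2.5, and 5.07 and 4.43 under constant light with filtered air and 7.72 and 8.15 with PM2.5. All 4 PM2.5 libraries thus lay above the 4 in filtered air, a difference of 0.61 ± 0.14 averaged over light that did not pass (edgeR adjusted p = 0.396). Srebf1, the sister gene that drives fatty acid synthesis, was at 23.7 FPKM in LD-PM2.5 replicate 1, the lowest library, and 56.8 in replicate 2, within the 48.0 to 91.2 of the rest. For this list the median of LD-PM2.5 against LD-FA was 0.16, with 0 lower and 1 higher at an unadjusted p under 0.05.

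Among 13 genes of LXR signalling, sterol export and esterification, the biliary exporters stood higher in PM2.5. Abcg5 was at 13.6 and 14.9 FPKM under light/dark with filtered air and 17.8 and 29.7 with PM2.5, and 15.3 and 14.9 under constant light with filtered air and 33.3 and 41.7 with PM2.5. Its partner Abcg8 read 12.8 and 17.8, 16.5 and 21.3, 16.1 and 15.8, and 28.6 and 31.3 FPKM in the same order, with overlap in the light/dark cycle. The difference for Abcg5 averaged over light was 1.01 ± 0.19 (edgeR adjusted p = 0.325). Abca1, the exporter to HDL, stood at 0.48 ± 0.17 for LD-PM2.5 against LD-FA (edgeR adjusted p = 0.438). The list had a median of 0.04 in that contrast, with 0 lower and 2 higher at an unadjusted p under 0.05.

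Of 13 genes that use isoprenoids for prenylation, ubiquinone or dolichol, 6 were lowest in LD-PM2.5 replicate 2 and 2 highest, against 19.4% and 19.1% of all genes, and their log2 difference between the LD-PM2.5 replicates had a median of -0.07. For LD-PM2.5 against LD-FA their median was -0.21 with 0 at an unadjusted p under 0.05. Of 9 tested genes of fatty acid synthesis, 0 were lowest in that library and 2 highest, and the median difference between the replicates was 0.22. Fasn, the fatty acid synthase, was at 47.4 and 72.8 FPKM in the 2 LD-PM2.5 libraries and at 35.9 to 95.9 in the others. In the first contrast 1 of the 9, the acetyl-CoA carboxylase gene Acaca at 0.55 ± 0.20, was higher at an unadjusted p under 0.05 and 0 were lower.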

How the data were processed

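Liver RNA-seq of 8 libraries, 2 in each of 4 groups, was used as deposited. Per the submitters' processing notes, reads were processed with STAR, Cufflinks and Cuffdiff on mm10. Their versions, options and annotation were not stated in the labels. Per the file headers, the authors' table gives each gene in each library an estimated count of fragments and an FPKM value. Of the fragment values above 0, 97.42% lay within 0.01 of a whole number, and all were rounded. Genes with a status other than OK in any library (47 genes, 1.07% of fragments) were left out, none of them among the 26. FPKM is scaled by the authors with library-specific transcript estimates and need not move in proportion to fragments, so levels and fold changes can differ slightly. Symbols came from a gene name table that matched 48051 of the 48432 IDs, positions from GENCODE vM21.

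The 11315 genes that reached 1 FPKM in 2 or more libraries were fitted in edgeR 4.0.16 (R 4.3.3, TMM scaling, 4 group means, 4 residual degrees of freedom, prior degrees of freedom 3.46, biological coefficient of variation 21.4%). Tests were two-sided quasi-likelihood tests with Benjamini-Hochberg adjusted p across the tested genes and a threshold of 0.05. SE is the absolute log2 fold change over the square root of F. Values per library for ranks and overlaps are log2 CPM with a prior count of 2. Alternatives were limma 3.58.1 on log2 FPKM with a pseudocount of 1 or 0.1, DESeq2 1.42.0, no filter or 5 FPKM, median-of-ratios scaling, a robust prior, a replicate block, fits of only the compared groups, and leaving out each library. The fit was tested on simulated data. There both LD-PM2.5 libraries were shifted alike, so a single library standing apart was not covered. All 26 genes are named, with up to 4 genes of smallest p in each further list, and marker or clock genes where they move with a result. Por, Thrsp, Rdh11, Erg28, Srebf1 and Fasn were named for their level after the values were seen. The 26 genes and the lists were chosen with earlier results of these data known. Libraries of a group differed by more than sampling noise (chi-square of 41.3 to 88.0 per degree of freedom), and each counted as 1 sample. Replicate numbers were taken as names only, since the labels give no batch. Deviations of same-numbered libraries correlated between -0.585 and 0.334 over pairs of groups. Whether libraries of the same number shared a batch is not known.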

Additional observations from a re-analysis of the deposited data

How the results depend on the processing

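Leaving out single libraries moved the median over the 26 genes between -1.12 and -0.21 for LD-PM2.5 against LD-FA, -0.30 and 0.08 for LL-PM2.5 against LL-FA, -0.37 and -0.22 for LL-FA against LD-FA, -0.14 and 1.03 for LL-PM2.5 against LD-PM2.5, 0.12 and 1.27 for the interaction, -0.65 and -0.15 for PM2.5 averaged over light, and -0.23 and 0.44 for constant light averaged over air. The number of the 26 called by edgeR ranged from 0 to 5 in the first of these and from 0 to 2 for PM2.5 averaged over light, both highest without LD-PM2.5 replicate 1 (0.318% and 0.15% of all genes), and was 0 in the other 5 contrasts. Without a filter on low values edgeR called 8 of the 26 for LD-PM2.5 against LD-FA (2.81% of the 23036 genes then tested), 2 for LL-PM2.5 against LD-PM2.5 (1.55%), 1 for the interaction (1.04%) and 6 for PM2.5 averaged over light (3.03%). The cause was not tested. DESeq2 called 1 for LL-PM2.5 against LD-PM2.5 (1.23%) and 1 for the interaction (0.292%).

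For LD-PM2.5 against LD-FA, 3 fold changes turned sign. Dhdds, at -0.03, was 0.0 with the filter at 5 FPKM, 0.04 without LD-FA replicate 1, between -0.33 and 0.21 when LD-PM2.5 replicate 1 or 2 was left out, and 0.04 without the first library of both filtered air groups, an alternative chosen after seeing the data. Stard4, at 0.14, was -0.06 without LD-FA replicate 1, between -0.27 and 0.46 when LD-PM2.5 replicate 1 or 2 was left out, and -0.06 in that added alternative. Idi1, at -0.75, was between -2.42 and 0.01 when single libraries were left out, the upper value without LD-PM2.5 replicate 2. With a replicate block the median of LD-PM2.5 against LD-FA was -0.67 and 0 of the 26 were called, and the block changed no other call of these genes. Scaling by median of ratios, the robust prior and fits of only the compared groups kept 0 of the 26 called in each contrast they were run for.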
